A study of Mus musculus with 10 samples.

Results

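Apolipoproteins, the liver X receptors (LXRs) and the genes that move cholesterol out of cells were followed in the hippocampus of DHT-treated and void-treated female mice. The set was chosen by gene symbol and holds 10 genes of the 56884 in the count table, each matched through its Ensembl identifier. They are the apolipoprotein genes Apoe, Apoc1, Apod and Clu, the transporter genes Abca1 and Abcg1, the receptor genes Nr1h2 and Nr1h3, and the LXR target genes Mylip and Srebf1. All 10 had enough counts to be tested, and 17622 genes were tested in all.

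Bulk RNA-seq was performed on hippocampi of 10 ovary-intact female P301S mice, also called PS19, with 1 library per mouse. Every mouse carried human Tau with the P301S mutation under the mouse Prnp promoter, on a B6;C3 background, so no group without the transgene enters the comparison. At 6 months of age, 5 females received a subcutaneous SILASTIC tubing implant holding 10 mm of dihydrotestosterone (DHT), an androgen that aromatase cannot turn into estrogen, and 5 received a void implant without hormone. Tissue was taken after 12 weeks, at 9 to 9.5 months. Mice were housed with others of their own treatment, and libraries were numbered with the void group ahead of the DHT group, so neither housing nor numbering can be told apart from treatment.

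Brain cholesterol is made locally and travels between cells on lipoprotein particles. Astrocytes and reactive microglia load these particles with lipid through ABCA1 and ABCG1 and supply their main protein, apolipoprotein E. When cholesterol accumulates, its oxidized derivatives bind LXRα (Nr1h3) and LXRβ (Nr1h2), which pair with retinoid X receptors (RXRs) on DNA and switch on efflux genes, Srebf1, which drives fatty acid synthesis, and Mylip, whose product IDOL is a ubiquitin ligase that limits lipoprotein uptake.

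The promoters of 2 members are shown because they carry an LXR-type element and because their genes had the larger fold changes among transporters and LXR targets. Promoter windows from RefSeq (GRCm38.p6) covered 7 of the 10 members, with 12 annotated starts. Apoc1, Clu and Abcg1 were not covered. Sequences are the 250 bases before the annotated start, written 5′ to 3′ on the strand of the gene, and capitals mark matches, on either strand, to GGTTACT followed by any 2 bases and CGG. This form was written after the windows had been read.
Abca1, chr4:53159896-53160145, minus strand: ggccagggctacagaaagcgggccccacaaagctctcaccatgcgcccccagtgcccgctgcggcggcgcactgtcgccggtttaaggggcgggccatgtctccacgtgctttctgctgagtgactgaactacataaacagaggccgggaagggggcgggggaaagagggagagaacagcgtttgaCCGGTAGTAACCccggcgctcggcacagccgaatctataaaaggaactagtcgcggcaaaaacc
Srebf1, chr11:60210472-60210721, minus strand, the third of 3 annotated starts: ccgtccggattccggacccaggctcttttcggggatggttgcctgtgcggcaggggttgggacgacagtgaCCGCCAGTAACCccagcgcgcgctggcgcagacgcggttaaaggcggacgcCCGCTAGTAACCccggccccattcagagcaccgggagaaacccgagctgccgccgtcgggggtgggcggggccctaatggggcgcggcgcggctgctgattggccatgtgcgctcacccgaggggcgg

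The Abca1 window held 1 match, 64 to 53 bases before the start, and the Srebf1 window held 2, at 179 to 168 and 128 to 117 bases. Of 32851 promoter windows of this length, 0.0274% held the form. The windows of Apoe, Apod, Nr1h2, Nr1h3 and Mylip held none. Among other motifs searched on both strands, AGGTCA repeated after 4 bases of any kind and AGGTCA repeated after 1 base were in none of the members' windows, against 0.0152% and 0.0335% of all windows. Their shared core AGGTCA, which lies inside both repeats, was in none of them either, against 14% of all windows. The E-box CACGTG lay in the Abca1 window alone among the members and in 6.02% of all windows. These matches are descriptions of letters, and no binding was measured here.

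Total counts ranged from 27188854 to 47113661 in void-treated mice and from 33523527 to 45947784 in DHT-treated mice. Levels are given as CPM, counts scaled to a common library total after TMM normalization, which scales each library by a weighted average over most genes. The hippocampal neuron markers, such as Zbtb20, Neurod6 and Prox1, summed to between 1159 and 1838 CPM in every mouse. Much of this sum was Zbtb20, at a mean of 748 CPM with void and 763 CPM with DHT. General neuron markers summed to 10119 to 11229 CPM with void and 9290 to 10980 CPM with DHT. Of these 10 markers 0 were called, and 1 had a positive log2 fold change, against 52.4% of all genes tested. Microglia markers summed to 527 to 629 CPM in void-treated and 760 to 1170 CPM in DHT-treated females, and 8 of 14 were higher with DHT. Disease-associated microglia markers summed to 726 to 859 CPM and 921 to 1265 CPM, with 11 of 15 called higher. Ctsb, at a mean of 447 CPM with void and 560 CPM with DHT, made up much of this sum. With each of the 15 markers weighted alike, their mean log2 level was 1.39 higher with DHT. Choroid plexus markers summed to 113 to 1844 CPM in void-treated and 2076 to 2938 CPM in DHT-treated females, with 5 of 12 called higher. Log2 fold changes of all 12, called or not, ran from 1.63 to 2.69. Astrocyte markers overlapped, at 7220 to 10007 and 8197 to 10208 CPM, and Gfap alone of 12 was called. Over all tested genes, 5.22% were called higher at an adjusted p under 0.05. None of the markers on these lists was at 0 in all mice. Tissue RNA does not separate more cells of a type from more RNA per cell, here or in the results that follow.

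Libraries also differed in how they represented GC-rich transcripts. The median deviation of genes in the highest GC quartile minus that of genes in the lowest lay at 0.47 and 0.29 on the log2 scale in DHT mice 6 and 5, at 0.23 and 0.06 in void mice 9 and 10, and between -0.24 and -0.11 in the other 6 mice. This balance did not separate the treatments (two-sided exact permutation test, p = 0.643, n = 5 per group). It is given because Nr1h2, Apoe and Srebf1 are GC-rich, with 60.6%, 59.5% and 58.4% GC in their longest transcripts, which places them above 96.6%, 94.7% and 91.9% of tested genes or level with them. Where an offset for GC content in each library changed a result, the value with it is given. This offset was added after the values had been seen.

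With DHT, 3 of the 10 genes were higher and 0 were lower at an adjusted p under 0.05, while 5.22% of all tested genes were called higher, 0.261% lower and 5.48% in either direction. Calls were made by the quasi-likelihood test of edgeR, and p was adjusted by Benjamini-Hochberg over all genes tested. The 3 genes were Abca1, Clu and Apoc1. At an unadjusted p under 0.05, 6 members were higher and 0 lower, against 13.1% and 4.22% of all genes tested. DESeq2 called 4 higher and 0 lower, against 5.89% of genes called higher by DESeq2. The median log2 fold change was 0.35 over the 10 members and 0.01 over all genes tested, and all 10 were positive, against 52.4% of all genes. None of the 10 passed the study's further limit of a log2 fold change beyond 1, which 2.17% of all genes passed upward and 0.0227% downward, and none did so at an unadjusted p or with DESeq2. For the 3 called genes every DHT-treated mouse was above every void-treated mouse, a separation seen in 5.39% of all genes. The count of higher members fell to 1, Abca1, without void mouse 11, void mouse 4, DHT mouse 1 or DHT mouse 5, and rose to 4 without void mouse 9 or DHT mouse 2. The share of all genes called higher moved alike, to 1.97%, 2.77%, 2.23% and 3.64% in the first 4 of these fits and to 5.98% and 5.76% in the other two.

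**Figure D1:**
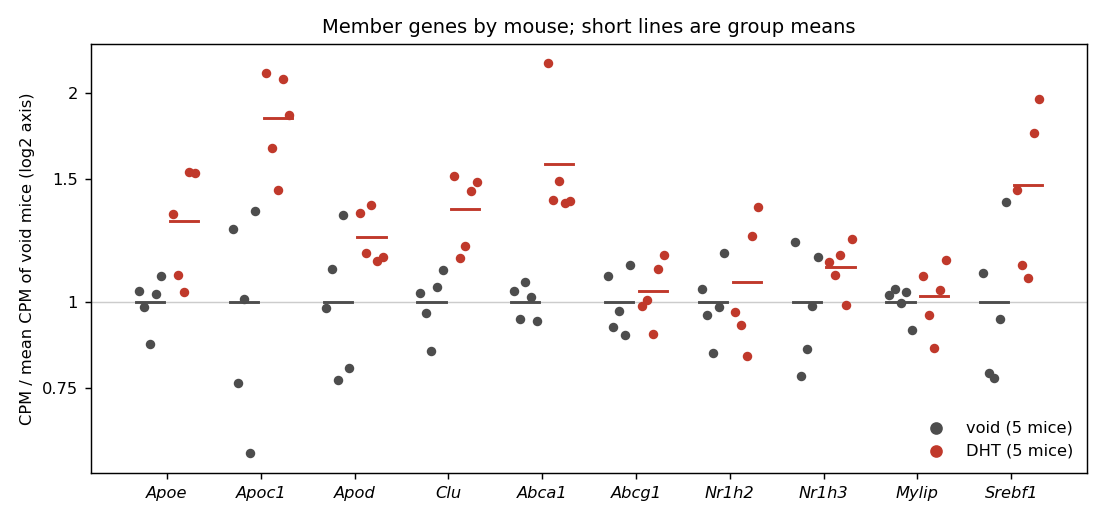
CPM of each member gene in each mouse divided by the mean CPM of the void-treated mice, on a log2 axis, with void in grey, DHT in red and group means as short lines. The groups do not overlap for Apoc1, Clu and Abca1 and overlap for the other 7 genes.

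Among the transporters, Abca1 and Abcg1 differed in response. ABCA1 passes cholesterol and phospholipid to lipid-poor apolipoproteins, the first step in building a particle. Abca1 (ENSMUSG00000015243) was at 88.4, 80.6, 91.1, 86.5 and 79.9 CPM in void mice 10, 11, 4, 5 and 9, and at 188, 120, 127, 118 and 119 CPM in DHT mice 1, 2, 3, 5 and 6. The groups were apart, void-treated mice lay close together, and DHT mouse 1 stood above the other 4 DHT-treated mice. DHT-treated females thus had 1.58-fold more Abca1 (log2 fold change 0.66, standard error 0.12), at an adjusted p of 0.0115 by edgeR. With each mouse left out in turn, Abca1 stayed called in 10 of 10 fits, with log2 fold changes from 0.47 without DHT mouse 1 to 0.70, and its highest adjusted p was 0.0499, without void mouse 11.

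ABCG1 adds cholesterol to particles that already hold lipid. Abcg1 (ENSMUSG00000024030) was at 106, 89.4, 94.4, 87.0 and 110 CPM in void mice 10, 11, 4, 5 and 9, and at 96.0, 97.8, 87.3, 108 and 114 CPM in DHT mice 1, 2, 3, 5 and 6. The groups overlapped along most of their range. Its log2 fold change, 0.05, was smaller than the standard error of 0.09 (adjusted p = 0.859).

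The same counts of both transporters were also compared within each library, where scaling between libraries has no part. The ratio of Abca1 to Abcg1 counts was 0.835, 0.901, 0.965, 0.993 and 0.728 in void mice 10, 11, 4, 5 and 9, and 1.96, 1.22, 1.46, 1.09 and 1.05 in DHT mice 1, 2, 3, 5 and 6. Every DHT-treated mouse had a higher ratio than every void-treated mouse. These counts are not corrected for gene length, so the ratio compares mice and does not rank the transporters. They are not corrected for GC content either, which is 47.5% for Abca1 and 52.7% for Abcg1. Void mice 9 and 10 and DHT mice 6 and 5, with the most GC-rich balance, had the lowest ratios of their groups. On the log2 scale the ratio averaged -0.19 ± 0.18 in void-treated and 0.40 ± 0.37 in DHT-treated mice (SD, n = 5 each), a difference of 0.59. The two-sided exact permutation test gave p = 0.00794, which is as low as groups of 5 can reach, and 0.0159 adjusted over 2 ratios. As Abcg1 differed little, the ratio largely repeats the Abca1 difference and is no separate result. Adjustment over 2 ratios does not allow for choosing the pair with earlier results known.

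**Figure D2:**
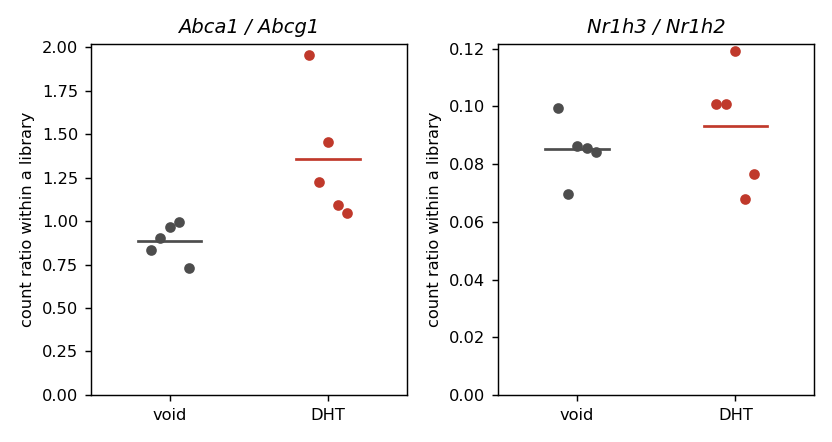
Ratio of raw counts within each library for the transporter pair and for the receptor pair, with 1 point per mouse and group means as lines, on axes that start at 0. The Abca1 to Abcg1 ratio, not corrected for gene length, does not overlap between groups and is higher with DHT, while the Nr1h3 to Nr1h2 ratio overlaps between groups.

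Abca1 was compared with the markers of cell types. Relative to the mean of the 14 microglia markers, its log2 level averaged 1.66 ± 0.15 in void-treated and 1.68 ± 0.11 in DHT-treated mice (SD, n = 5 each), a difference of 0.01, or -0.16 against the median of those markers. Relative to the 15 disease-associated microglia markers the difference of DHT minus void was -0.75 by their mean, with overlap between groups, and -0.15 by their median. Relative to the astrocyte markers it was 0.45 higher with DHT, with no overlap between groups. DHT mouse 1, highest for Abca1, also had the highest summed microglia markers, 1170 CPM, and the highest choroid plexus markers, 2938 CPM. Its sums were highest as well for disease-associated microglia markers, 1265 CPM, much of it Ctsb, astrocyte markers, 10208 CPM, and hippocampal neuron markers, 1838 CPM. Among the genes whose centred profile over the 10 libraries lay closest to that of Abca1 were Apbb1ip and Bin2, each at a mean absolute difference of 0.08 on the log2 scale among 17247 genes. The part of microglial content in the Abca1 difference was not tested.

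Among the apolipoproteins, Apoe, Clu and Apod had the highest levels per length of the 10 members, while Apoc1 was scarce. Clusterin, also called apolipoprotein J, is a secreted chaperone and lipid carrier of astrocytes and choroid plexus. Clu (ENSMUSG00000022037) was at 622, 581, 514, 635 and 671 CPM in void mice 10, 11, 4, 5 and 9, and at 919, 700, 727, 872 and 899 CPM in DHT mice 1, 2, 3, 5 and 6. The lowest DHT-treated mouse was above the highest void-treated mouse by a small margin. Clu was 1.36-fold higher with DHT (log2 fold change 0.45, standard error 0.09), at an adjusted p of 0.0194. Clu lost its call in 4 of the 10 fits that left out a mouse, namely void 11 (adjusted p = 0.0739), void 4 (0.0501), DHT 1 (0.0717) and DHT 5 (0.0558), with log2 fold changes of 0.37 to 0.50 over all 10 edgeR fits. The closest profiles were those of Lgi4, Ctdsp1 and Ctsa, at 0.04, 0.05 and 0.06, and Ctsa encodes a lysosomal protective protein.

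Apolipoprotein C1 is a small exchangeable apolipoprotein whose gene neighbours Apoe and is expressed in macrophages. Apoc1 (ENSMUSG00000040564) was scarce, with 23 to 95 counts per library. Its levels were 1.55, 0.929, 1.23, 0.735 and 1.64 CPM in void mice 10, 11, 4, 5 and 9, and 2.60, 2.02, 1.76, 2.54 and 2.26 CPM in DHT mice 1, 2, 3, 5 and 6. The groups were apart, with the nearest mice, void 9 and DHT 3, close to each other. Its log2 fold change of 0.88 was the highest of the 10 members (standard error 0.22, a 1.84-fold difference), at an adjusted p of 0.0393. The call was held in 2 of the 10 fits that left out a mouse, those without void 9 and DHT 2, and the adjusted p ranged from 0.0194 to 0.125 with log2 fold changes of 0.74 to 1.01.

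Apolipoprotein E is the main lipid carrier of the brain and a ligand of TREM2. Apoe (ENSMUSG00000002985) was at 718, 680, 602, 711 and 753 CPM in void mice 10, 11, 4, 5 and 9, and at 927, 756, 715, 1066 and 1062 CPM in DHT mice 1, 2, 3, 5 and 6. DHT mice 2 and 3 lay within or next to the void range, and DHT mice 5 and 6, the 2 libraries richest in GC-rich transcripts, were highest. Apoe was 1.31-fold higher on average (log2 fold change 0.39, standard error 0.12), which did not pass (adjusted p = 0.0802). It passed with DESeq2 (adjusted p = 0.0431), with edgeR on library size alone (0.0480), and in edgeR without DHT mouse 2 (0.0447) or DHT mouse 3 (0.0432). With the GC content offset, Apoe lay between 669 and 765 CPM in void-treated and between 796 and 1002 CPM in DHT-treated mice, and the groups no longer overlapped. In that fit the log2 fold change was 0.31 (adjusted p = 0.0153), and 5 of the 10 members were called higher against 7.04% of all genes. With TMM factors taken from neuron markers alone, 5 members were called as well, against 9.22% of all genes. The nearest profile to Apoe was that of Ftl1, the ferritin light chain gene, at 0.05, followed by Plcd1 at 0.06 and Romo1 at 0.07.

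Apolipoprotein D is a lipocalin made by oligodendrocytes, fibroblasts and pericytes. Apod (ENSMUSG00000022548) was at 141, 160, 111, 192 and 116 CPM in void mice 10, 11, 4, 5 and 9, and at 193, 170, 198, 165 and 167 CPM in DHT mice 1, 2, 3, 5 and 6. Void mouse 5 lay among the DHT-treated mice, while void mice 4 and 9 were lowest. Its difference, 0.31 on the log2 scale with a standard error of 0.14, did not pass at an adjusted p of 0.258. With the choroid plexus covariate described further on it was 0.79, also not called. Oligodendrocyte markers, none of which was called among 11, summed to 3469 to 4784 CPM with void and 4310 to 4610 CPM with DHT.

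The 2 receptor genes showed no difference beyond the spread between mice. LXRβ is made in most brain cells, while LXRα is prominent in macrophages. Nr1h2 (ENSMUSG00000060601) was at 28.2, 25.8, 22.8, 26.5 and 31.7 CPM in void mice 10, 11, 4, 5 and 9, and at 26.0, 24.9, 22.5, 33.5 and 36.9 CPM in DHT mice 1, 2, 3, 5 and 6. Mice high for Nr1h2 were those with a high balance of GC-rich transcripts in either group. With the GC content offset its levels closed up to 25.8 to 28.7 CPM with void and 25.4 to 28.4 CPM with DHT. Without the offset the groups differed by 0.09 on the log2 scale (standard error of 0.14, adjusted p = 0.814) and with it by 0.01.

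Nr1h3 (ENSMUSG00000002108) was at 2.80, 1.80, 1.97, 2.27 and 2.67 CPM in void mice 10, 11, 4, 5 and 9, and at 2.62, 2.52, 2.68, 2.27 and 2.83 CPM in DHT mice 1, 2, 3, 5 and 6. The DHT-treated mice other than DHT 6 lay inside the void range. They differed by 0.17 on the log2 scale (standard error of 0.15, adjusted p = 0.631), at 60 to 128 counts per library. The ratio of Nr1h3 to Nr1h2 counts ran from 0.0698 to 0.0996 with void and from 0.0678 to 0.119 with DHT, and the log2 ratio differed by 0.11 (two-sided exact permutation test, n = 5 per group, p = 0.516, also after adjustment over 2 ratios). The annotation places 34 exonic bases of Nr1h3 within Gm13783 on the same strand, where reads could be divided.

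Of the 2 LXR target regulators, Srebf1 had the larger fold change. Srebf1 (ENSMUSG00000020538) was at 50.5, 36.2, 35.5, 43.2 and 63.9 CPM in void mice 10, 11, 4, 5 and 9, and at 66.3, 51.8, 49.6, 80.4 and 89.9 CPM in DHT mice 1, 2, 3, 5 and 6. The groups overlapped through void mouse 9, and within each group the order of the mice was close to that of their balance of GC-rich transcripts. The log2 fold change of 0.56 (standard error 0.20, a 1.47-fold difference) had an adjusted p of 0.137. It passed without void mouse 9 (log2 fold change 0.71, adjusted p = 0.0416, edgeR) and with the GC content offset (0.49, adjusted p = 0.0244). With that offset the levels were 38.4 to 57.4 CPM in void-treated and 54.4 to 72.3 CPM in DHT-treated mice. Counts per gene do not separate the transcripts that start at its 3 annotated promoters, and 109 exonic bases overlap Rai1 on the other strand.

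Mylip (ENSMUSG00000038175) was level between groups. It was at 23.7, 24.2, 23.1, 23.9 and 21.1 CPM in void mice 10, 11, 4, 5 and 9, and at 25.2, 22.2, 19.9, 24.1 and 26.6 CPM in DHT mice 1, 2, 3, 5 and 6. The DHT-treated mice spread to either side of the void-treated mice. Its log2 fold change was 0.03, with a standard error of 0.08 and an adjusted p of 0.929.

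**Figure D3:**
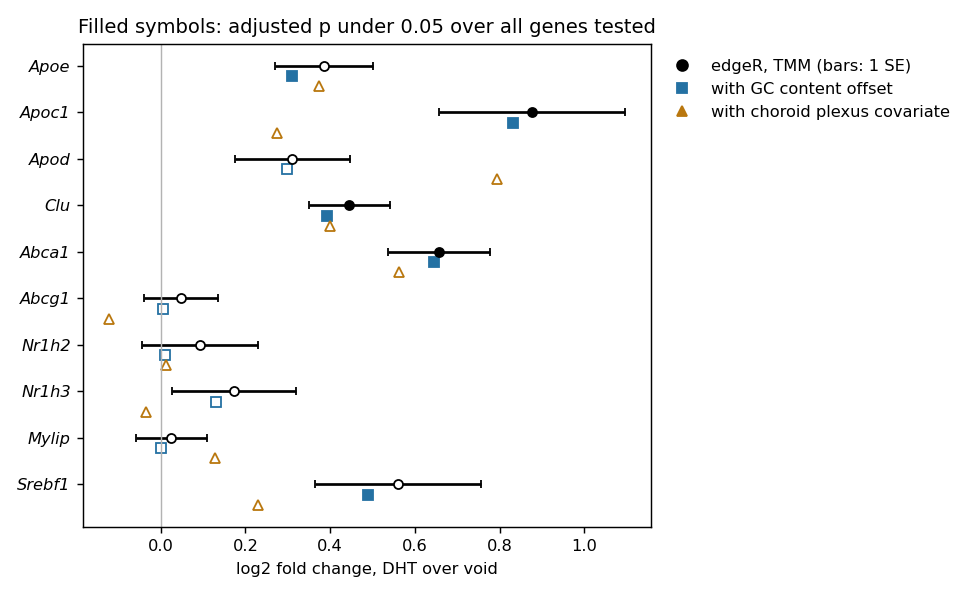
Log2 fold change of DHT over void for each member in edgeR with 1 standard error (black), with an offset for GC content (blue) and with the choroid plexus marker mean as a covariate (orange), where filled symbols have an adjusted p under 0.05. Abca1, Clu and Apoc1 are filled in black, Apoe and Srebf1 join them in blue, and none is filled in orange.

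**Figure D4:**
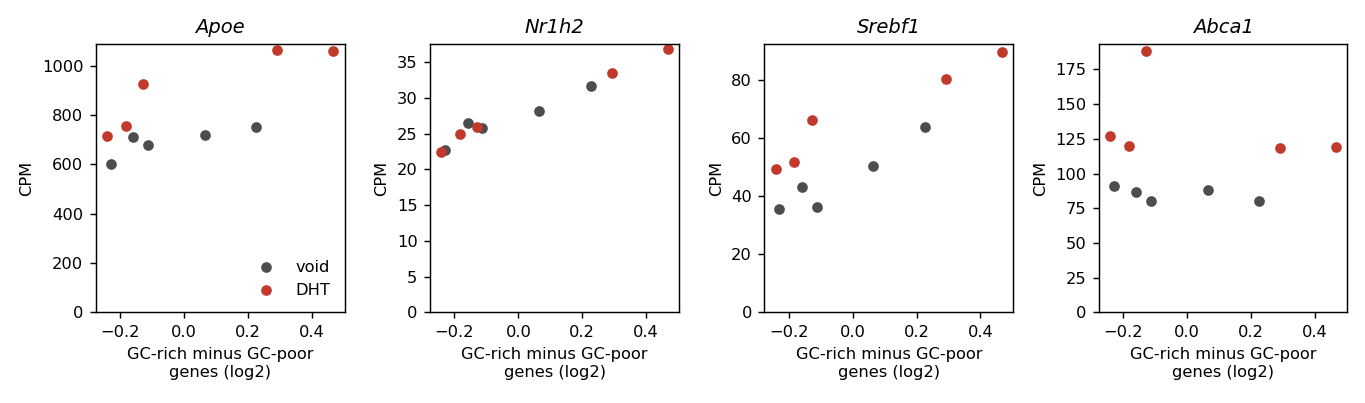
CPM of 4 members in each mouse against the median log2 deviation of GC-rich minus GC-poor genes in that library, with void in grey and DHT in red. Nr1h2 follows this balance in either group, Apoe and Srebf1 follow it with DHT-treated mice lying higher at a like balance, and Abca1 shows no such slope.

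Choroid plexus content was taken up as a covariate because its markers differed with treatment. In that fit the log2 fold change was 0.56 for Abca1, 0.40 for Clu, 0.37 for Apoe and 0.28 for Apoc1, and 0 of the 10 members passed in edgeR, although Apod, Abca1 and Clu had an unadjusted p under 0.05. The same fit called 0 of 17622 genes, which is 0% of the background. Void mouse 9, with 1844 CPM of choroid plexus markers, was nearest to the DHT-treated mice in that sum, and its Abca1 level of 79.9 CPM was the lowest of the 10 mice. For Clu, Apoc1, Apoe and Srebf1, void mouse 9 had the highest level of the void-treated mice. With the GC content offset it stayed highest for Apoc1 and Srebf1 only. In that fit it was the lowest void-treated mouse for Apoe, at 669 CPM. For Clu it lay at 622 CPM, below void mouse 5 at 665 CPM. Choroid plexus marker sums did not overlap between groups, at 113 to 1844 CPM with void and 2076 to 2938 CPM with DHT. The covariate thus largely follows treatment, and this fit cannot tell choroid plexus content apart from treatment. The part of choroid plexus RNA in the differences of these 4 genes and of Abca1 was not tested.

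Levels were ranked between members per kilobase of exon. Apoe was at 324 ± 26.7 CPM per kilobase (SD, n = 5) in void-treated and 423 ± 77.3 in DHT-treated mice, followed by Clu at 176 ± 17.5 and 240 ± 29.7, and Apod at 55.9 ± 12.99 and 69.4 ± 6.16. Abcg1 came next, at 13.3 ± 1.38 and 13.8 ± 1.43. With void, Abca1 (8.23 ± 0.47), Srebf1 (8.14 ± 2.09), Nr1h2 (8.04 ± 0.98) and Mylip (7.17 ± 0.39) followed. The ranges of Abca1, Srebf1 and Nr1h2 overlapped, as did those of Srebf1, Nr1h2 and Mylip, whereas the lowest Abca1 value, 7.71, was above the highest Mylip value, 7.49. With DHT, Abca1 reached 12.97 ± 2.91 CPM per kilobase and Srebf1 12.0 ± 3.12, and the range of each overlapped that of Abcg1, from 11.96 to 15.6. Apoc1, at 1.64 ± 0.52 and 3.01 ± 0.47, and Nr1h3, at 0.915 ± 0.17 and 1.03 ± 0.08, were the least abundant.

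Other genes of the pathway were taken from 7 lists of 144 genes, of which 117 were tested. Among them 11 were higher and 0 lower, while 5.22% of all tested genes were called higher and 0.261% lower. Those shares also stand beside the counts of each list below. The median log2 fold change of the 117 genes was 0.01, as over all genes. The count of 11 fell to 4 without void mouse 11, 5 without void mouse 4 or DHT mouse 1, and 7 without void mouse 10, void mouse 5 or DHT mouse 3, while the calls over all genes fell from 920 to 351, to 493 and 395, and to 552, 678 and 518. Of 16 tested LXR targets other than the members, 4 were higher and 12 were not called. Smpdl3a, a phosphodiesterase induced by LXR in macrophages, was at 26.5 CPM with void and 37.4 CPM with DHT (log2 fold change 0.50, standard error 0.09, adjusted p = 0.0122, edgeR). Acacb, which makes malonyl-CoA at mitochondria, rose by 0.93 (standard error 0.18), Pltp, the phospholipid transfer protein, by 0.60 (0.15) and Mlxipl, a glucose-sensing factor of lipid synthesis, by 0.59 (0.15), with adjusted p values of 0.0128, 0.0333 and 0.0405. Other textbook targets gave log2 fold changes of 0.01 for Scd1, -0.02 for Fasn and 0.10 for Lpl, with standard errors of 0.08, 0.15 and 0.22. Lpcat3, a further target that was not called, was at 0.23 (standard error 0.09, unadjusted p = 0.0267, adjusted p = 0.203, edgeR).

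**Figure D5:**
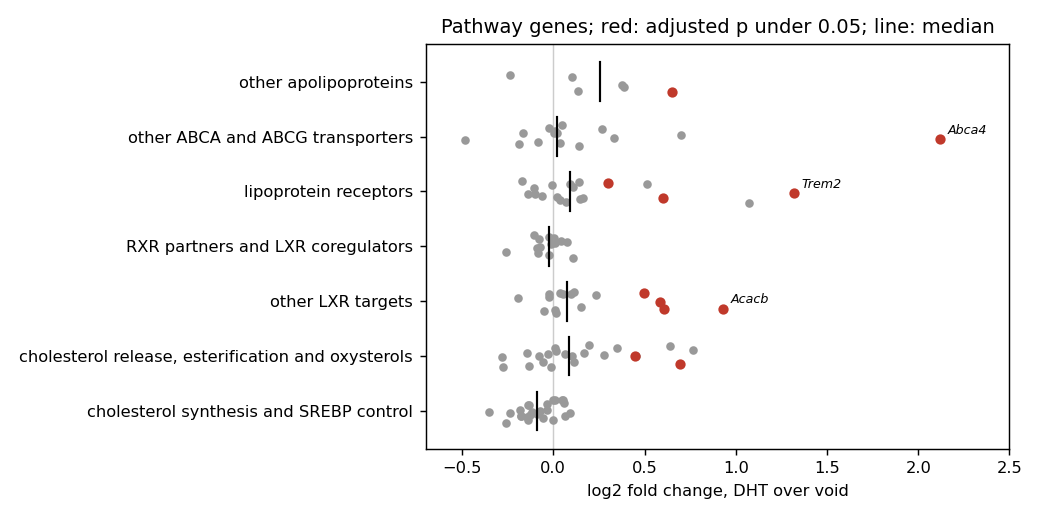
Log2 fold change of DHT over void for the tested genes of the 7 pathway lists, with genes called at an adjusted p under 0.05 in red and the list median as a black line. Called genes appear in 5 lists, and none lies among the RXR partners and LXR coregulators or the cholesterol synthesis genes.

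Among receptors for lipoproteins and related ligands, 3 of 19 tested genes were higher. Trem2, the microglial receptor for lipids and apolipoproteins, was at 8.24 CPM with void and 20.5 CPM with DHT, a log2 fold change of 1.32 with a standard error of 0.20 and an adjusted p of 0.00761 by edgeR. Lrp5 and Lrp6, which act as Wnt coreceptors, rose by 0.60 (standard error 0.11) and 0.30 (0.08), with adjusted p values of 0.0122 and 0.0416. Lrp1 and Vldlr, which take up apolipoprotein E particles, did not pass, with log2 fold changes of 0.14 and 0.09 (standard errors 0.14 and 0.06).

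Of 6 tested apolipoprotein-related genes beyond the members, Apobr, a macrophage receptor for apolipoprotein B, was higher, at 1.23 CPM with void and 1.93 CPM with DHT (log2 fold change 0.65, standard error 0.15, adjusted p = 0.0258, edgeR). The other 15 of that list had too few counts. Of 15 tested ABCA and ABCG transporters other than the members, Abca4, a retinoid transporter, was higher, from 10.0 to 43.8 CPM (log2 fold change 2.12, standard error 0.47, adjusted p = 0.0237). Its void values spread from 3.18 to 25.4 CPM, and its DHT values from 35.8 to 62.7 CPM. The choroid plexus markers, which also spread widely with void, had log2 fold changes of 1.63 to 2.69. The part of choroid plexus RNA in the Abca4 difference was not tested.

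Genes for the release, storage and oxidation of cholesterol gave 2 higher genes of 22 tested. Npc2, which carries cholesterol out of lysosomes, was at 47.4 CPM with void and 76.8 CPM with DHT (log2 fold change 0.70, standard error 0.12, adjusted p = 0.00990, edgeR). Plin2, which coats lipid droplets, rose by 0.45 (standard error 0.11, adjusted p = 0.0300). Npc1, the membrane partner of NPC2 for lysosomal export, differed by 0.11 on the log2 scale, with a standard error of 0.08 and an adjusted p of 0.560.

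RXR partners and LXR coregulators gave 0 called genes of 14, with 0 at an unadjusted p under 0.05 and 0 with DESeq2. Ncoa2 had the lowest p, at a log2 fold change of -0.11 with a standard error of 0.05 and an adjusted p of 0.348 by edgeR. The log2 fold change was 0.04 for Rxra and 0.01 for Rxrb. Cholesterol synthesis genes gave 0 called genes of 25, with 4 lower and 0 higher at an unadjusted p under 0.05 and 1 lower with DESeq2. Over all tested genes, 4.22% were lower and 13.1% higher at an unadjusted p under 0.05, and DESeq2 called 226 of 20716 lower. Log2 fold changes were positive for 6 of the 25, with a median of -0.09, and Hmgcs1, an early enzyme of the pathway, had the lowest p (log2 fold change -0.24, standard error 0.08, adjusted p = 0.106).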

How the data were processed

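Libraries were made from hippocampal mRNA. The authors trimmed and filtered reads with HTStream, aligned them with STAR (version 2.7.10b in the submitters' processing notes) and deposited raw gene counts, which carry no normalization. The study's methods name mm10 and the processing notes mm39. The counting tool, annotation release and strand handling are not given in the sources used here. Of 56884 identifiers, 51948 had a symbol in GENCODE M21, used for names, exon lengths, GC content and overlaps only.

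Groups came from the treatment labels. R 4.3.3 and edgeR 4.0.16 were used for the group-aware expression filter, TMM normalization and the quasi-likelihood test, with p adjusted by Benjamini-Hochberg over 17622 genes. Each standard error is the size of the log2 fold change over the root of its F statistic. DESeq2 1.42.0, the study's tool, was an alternative, as were other normalizations, filters, a choroid plexus covariate and leaving out each mouse. The GC content offset and the removal of void mouse 9 together with DHT mouse 1 were added after seeing the data. Log2 CPM used a prior count of 2. Named genes were all members and, per pathway list, those called, at most 4 by p, or the lowest p where none was called. Profiles were compared among genes with a mean of at least 10 counts. The members, lists and rules were chosen with earlier results of these data known. Lrp1, Vldlr, Scd1, Fasn, Lpl, Lpcat3, Npc1, Rxra and Rxrb were named beyond the rule. Some genes that the rule or the lists hold are not reported here. The tests were tested on simulated data with known changes. P-values set the difference between groups against the spread between mice, and any effect of housing by treatment lies within that difference.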

Additional observations from a re-analysis of the deposited data

Results flagged for a closer look

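In the DHT group, mouse 1 stood above the other 4 mice for Abca1 CPM, with a gap to the nearest mouse of 0.875 of the group's whole range, against a critical value of 0.71. Of 24 groups examined, over the 10 members and the 2 count ratios, 1 exceeded that value, where chance gives about 1.2. Without this mouse the log2 fold change of Abca1 was 0.47 and it stayed called, with an adjusted p of 0.0127 by edgeR. Over the 10 fits that each left out a mouse, the highest adjusted p was 0.0499, without void mouse 11.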

How the results depend on the processing

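No paired analysis was made, because the labels used here do not give the litter of any mouse. The paper states that littermates were assigned to treatment at random, so any effect of litter was not modelled. Mouse number 5 occurs in both groups but stands for different mice. The count of higher members became 5 with TMM on neuron markers, where the all-gene median shifts to 0.12, 0 with the choroid plexus covariate and 5 with the GC content offset, and ranged from 1 to 4 with a mouse left out. The count past both limits ranged from 0 to 1, reaching 1 without void mouse 9. Higher pathway genes numbered 7 with no filter beyond 1 count and 0 with the covariate, and 4 to 10 with a mouse left out. With no filter beyond 1 count 2.69% of all genes were called higher, and with the covariate 0%. Lower pathway genes numbered 1 with DESeq2, 1 with the offset and 0 to 1 with a mouse left out. As log2 fold changes, Apoe passed with neuron markers (0.49), DESeq2 (0.36), library size alone (0.39) and the offset (0.31), and ranged from 0.28 to 0.44. Srebf1 passed with neuron markers (0.66) and the offset (0.49) and ranged from 0.44 to 0.71. The covariate ended the calls of Apoc1 (0.28), Clu (0.40) and Abca1 (0.56). Without both void mouse 9 and DHT mouse 1, Apoc1 was at 0.91 and not called. Apoc1 ranged from 0.74 to 1.01 and Clu from 0.37 to 0.50. Among values near 0, signs turned for Abcg1 (-0.12) and Nr1h3 (-0.0351) with the covariate, and for Mylip with DESeq2 (-0.00296), its size factors in edgeR (-0.00261) and without both mice (-0.0721). With a mouse left out, Abcg1 ranged from -0.0163 to 0.10, Nr1h2 from -0.0117 to 0.16 and Mylip from -0.0347 to 0.0565. The cause was not tested. Counting error limits Apoc1 and Nr1h3 most.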
